A study of Mus musculus with 6 samples.

Results

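The 51 mouse genes described here copy DNA or supply what copying needs. They comprise genes for origin licensing, the MCM helicase and its activation, the DNA polymerases, the sliding clamp and its loaders, the lagging strand, RPA, fork protection, deoxynucleotide synthesis and chromatin assembly, with Slbp. Members were listed by name and found by matching Entrez Gene IDs to mouse symbols, and all 51 were found among the 24532 genes in the tables. Transcript levels were measured by RNA sequencing in 6 libraries of cells sorted from the bone marrow of C57BL/6J mice, with 2 biological duplicates in each of 3 populations. BaP, labelled a basophil precursor, was sorted without lineage markers or c-Kit but with CD34 and with binding of MAR1, an antibody to the alpha chain of the IgE receptor. MAR1HI and MAR1INT cells lacked lineage markers, CD34 and c-Kit, carried CD200R3, and bound MAR1 at a high or an intermediate level. No group received a treatment or carried an engineered allele according to the labels, and the age and number of mice, or any pooling of them, were not given in the sources used here. The comparisons ask how far the replication genes are expressed in each of these populations.

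Before a cell copies its DNA, the origin recognition complex, CDC6 and CDT1 load the ring of MCM2 to MCM7 onto origins. CDC7 kinase and further factors then turn each ring into an active CMG helicase made of CDC45, MCM and GINS. Polymerase alpha with primase starts each strand, polymerases delta and epsilon extend it on the PCNA clamp, and ribonucleotide reductase and thymidylate synthase feed them. Most of these genes are transcribed in late G1 and S phase under the E2F factors, and in bone marrow they are high in dividing progenitors and low in mature granulocytes.

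Upstream sequences are shown first because E2F factors are known regulators of many of these genes. They come from RefSeq promoter windows of GRCm38.p6, the same assembly as mm10, reaching from 250 bases before to 50 bases from the start, and 41 of the 51 members had one (47 windows). The search letters were TTTCCCGC, TTTCGCGC, TTTGCCGC and TTTGGCGC on both strands, where matches may overlap. Of the 41 members, 15 (36.6%) held at least 1 match, against 704 of 27025 genes in the whole table (2.61%) and 5.02% of the 8853 tested genes with a window. A search on both strands for CCAAT matched 56.1% of members, 41.1% of all genes and 43.9% of tested genes. For GGGCGG the shares were 73.2%, 38.2% and 68.0%, and for TTTGAA 17.1%, 20.2% and 15.1%. Median GC content was 61.3% in the members' windows and 52.7% in all windows. A match describes letters only, and binding was not measured.

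The 200 bases before the start are printed for 4 members whose stretch held no annotated exon bases, 5′ to 3′ on the gene's strand with each E2F match in capitals. Mcm5 (chr8:75109309-75109508, plus strand) has a pair of overlapping matches in 1 run, Mcm6 (chr1:128359706-128359905, minus strand) has 3, of which 2 overlap, and Pola1 (chrX:93632156-93632355, minus strand) has 1. Chaf1a (chr17:56040216-56040415, plus strand) is the example without an exact match to the search letters. Its stretch does hold ccgccaaa, 1 base away from the searched GCGCCAAA. Near matches were not counted in any promoter, so a stretch without a match can still hold a related site.
Mcm5: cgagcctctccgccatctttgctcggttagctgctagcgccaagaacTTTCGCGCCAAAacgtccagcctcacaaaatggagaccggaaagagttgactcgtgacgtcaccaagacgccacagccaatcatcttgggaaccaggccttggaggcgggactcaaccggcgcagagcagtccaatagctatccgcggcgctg
Mcm6: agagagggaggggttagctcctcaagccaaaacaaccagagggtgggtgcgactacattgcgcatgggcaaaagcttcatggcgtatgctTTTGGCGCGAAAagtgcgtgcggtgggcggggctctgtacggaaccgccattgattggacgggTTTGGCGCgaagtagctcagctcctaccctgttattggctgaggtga
Pola1: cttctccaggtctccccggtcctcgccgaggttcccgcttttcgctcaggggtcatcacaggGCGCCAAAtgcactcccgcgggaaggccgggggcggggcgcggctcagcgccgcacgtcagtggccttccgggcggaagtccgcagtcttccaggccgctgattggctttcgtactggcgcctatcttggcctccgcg
Chaf1a: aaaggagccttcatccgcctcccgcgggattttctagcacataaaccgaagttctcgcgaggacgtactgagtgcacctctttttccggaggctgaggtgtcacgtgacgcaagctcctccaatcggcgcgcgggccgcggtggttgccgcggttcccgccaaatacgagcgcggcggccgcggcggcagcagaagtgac

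For 6 other called members, whose matches lay past the start or whose upstream stretch held annotated exon bases, 1 match each is shown with 8 bases on either side, again in capitals and on the gene's strand. The printed matches of Pole2 (chr12:69228165-69228188, minus strand), Lig1 (chr7:13278844-13278867, plus strand), Clspn (chr4:126556993-126557016, plus strand) and Mcm3 (chr1:20820278-20820301, minus strand) began 10, 26, 21 and 19 bases past the start that the RefSeq window marks. That start can differ from the deposited gene's: the Mcm3 match lies upstream of the latter, at 20820213. Lig1 and Mcm7 have windows at more than 1 start. The matches printed for Mcm7 (chr5:138172033-138172056, minus strand) and Cdc6 (chr11:98908005-98908028, plus strand) lay upstream of the window's start, at positions -165 and -138. The Cdc6 match lies inside the deposited gene, which starts at 98907889. Mcm3 and Mcm7 each held 1 more match past the start, at positions 38 and 16.
Pole2: cggcggtgGCGCCAAAtcgcgaac
Lig1: caaagtgcGCGCGAAAtctgtgtg
Clspn: gcgtctggGCGCGAAAgctcgaac
Mcm3: cttccgtgGCGGGAAAacttggga
Mcm7: ttcgaaccGCGGGAAAcagggtgt
Cdc6: ggtggagaGCGGGAAAtcgcctgg

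Nearly all of the 51 genes were much lower in MAR1INT than in either other population, while BaP and MAR1HI were near each other. Values are TPM (a transcript abundance scaled for transcript length and library size), so levels are per length, and capture in library preparation can still shift them between genes. Summed over the 51 members, TPM was 3687 and 3463 for the 2 BaP duplicates, 3119.5 and 3688 for MAR1HI, but 1052 and 879 for MAR1INT. A single gene, Rfc2, went the other way and made up 37.2% and 42.3% of the MAR1INT sums, against 7.31% to 9.86% in the other libraries. Over all 51 members, the mean sum was 3.70-fold that of MAR1INT in BaP and 3.53-fold in MAR1HI. Rfc2 was then left out, a step added after its values were seen. Without it the sums were 3307 ± 137 in BaP, 3077 ± 375 in MAR1HI but 584 ± 108 in MAR1INT (SD, n = 2 each). On these sums BaP was 5.66-fold and MAR1HI 5.27-fold that of MAR1INT. The median member stood at 45.8 and 43.2 TPM in BaP, 34.0 and 50.2 in MAR1HI, but 7.64 and 6.11 in MAR1INT.

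**Figure D1:**
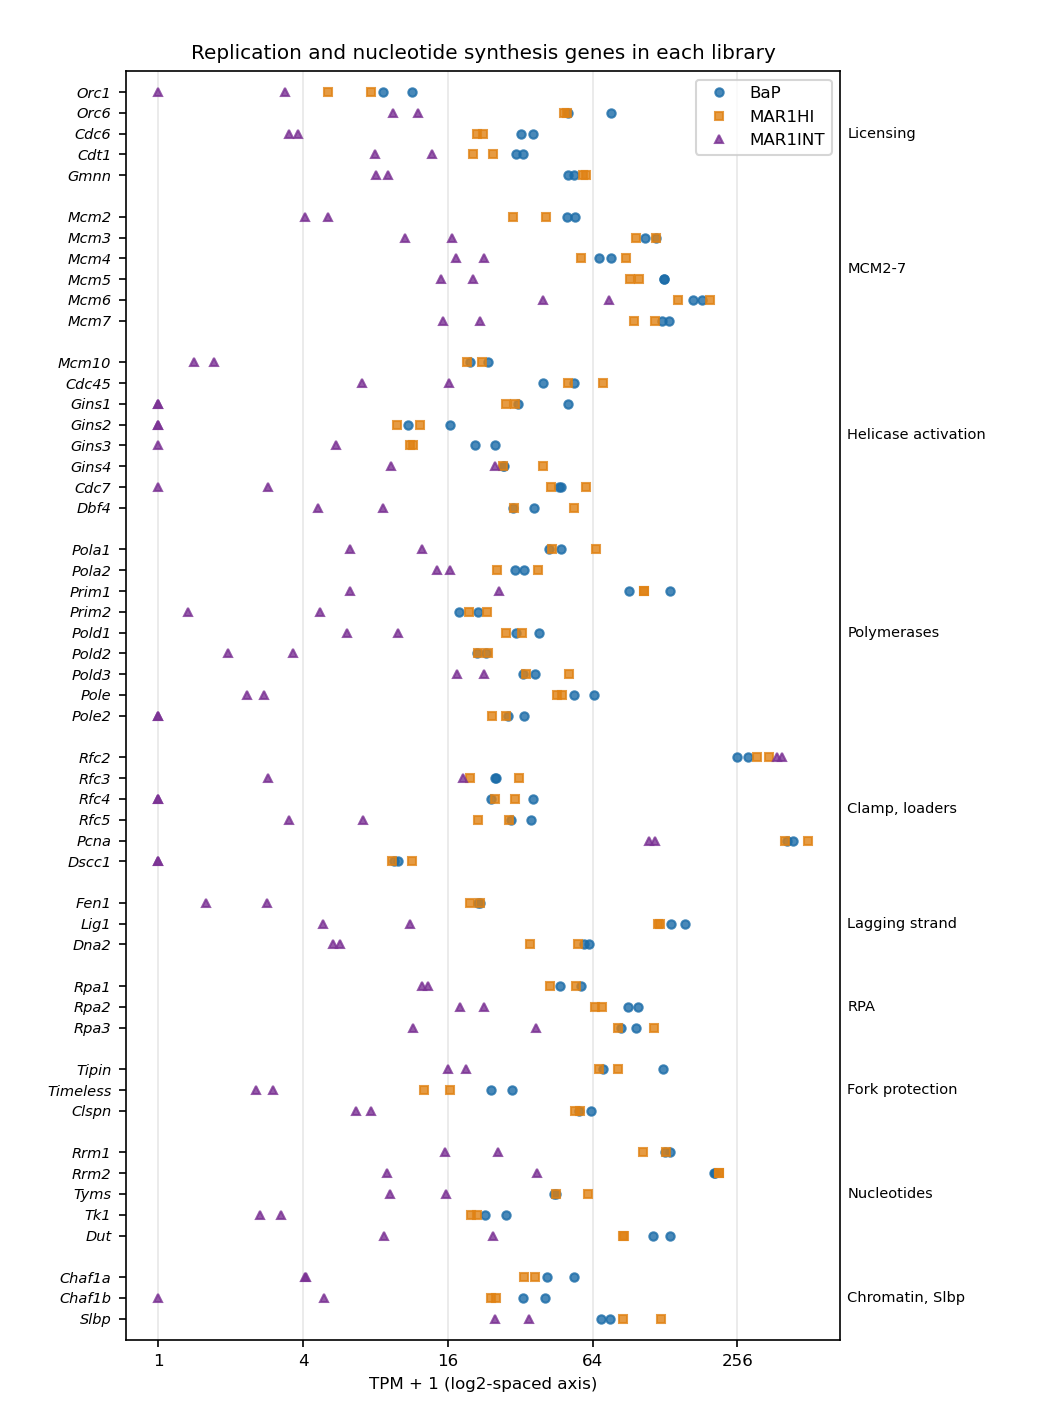
TPM + 1 (x axis, log2-spaced) of each of the 51 genes in the 6 libraries, ordered by role; each point is 1 library, with circles for BaP, squares for MAR1HI and triangles for MAR1INT. Both MAR1INT triangles lie left of the other 4 points for 50 of the 51 genes, and a triangle at 1 stands for a gene listed at 0.

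A gene was called when limma's adjusted p for a log2(TPM + 1) difference was under 0.05, after Benjamini-Hochberg adjustment over the 11337 genes that reached 1 TPM in 2 libraries or more. All 51 members met that filter and all had at least 1 TPM in each BaP and MAR1HI library, whereas 10 and 9 of them were under 1 TPM in the MAR1INT libraries. In MAR1INT minus MAR1HI, limma called 43 of the 51 lower (of all genes, 14.5% were called lower) and 0 higher (all genes 2.29%). The members' median log2 change was -2.56, and that of all tested genes was -0.36, a gap of -2.20. In MAR1INT minus BaP, 47 were called lower (all genes 20.4%) and 0 higher (all genes 11.1%), with a median log2 change of -2.85 against -0.16 over all genes, a gap of -2.69. In MAR1HI minus BaP, limma called 0 lower (all genes 0.662%) and 0 higher (all genes 1.83%), and 1 member, Timeless, had an unadjusted p under 0.05. The F test over the 3 groups called 46 of 51 (all genes 26.6%). The shares over all genes given here also apply to the counts by role and by list below. Contrasts that share libraries are not independent of each other, and p-values measure the spread between duplicates, whose origin from separate mice was not stated beyond the word biological.

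Without any test, both MAR1INT libraries were below both MAR1HI libraries for 50 of the 51 members (42.2% of all tested genes), and below both BaP libraries for 50 (39.1% of all). Rfc2 was the exception in each. In bulk libraries, fewer replicating cells and less of these transcripts per cell cannot be told apart. Duplicates of the members differed by a median of 1.12-fold in BaP, 1.21-fold in MAR1HI and 1.55-fold in MAR1INT, where 14 of the 42 members above 0 in both libraries differed by over 2-fold. MAR1HI replicate 2 was the higher duplicate for 41 of 51 members, and its values were also high across all genes, with a median-of-ratios scaling factor of 1.38 against 0.918 to 0.996 in the other libraries. Leaving out that library left 19 of the 43 calls in MAR1INT minus MAR1HI, where the number of all genes called lower also went from 1640 to 211.

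**Figure D2:**
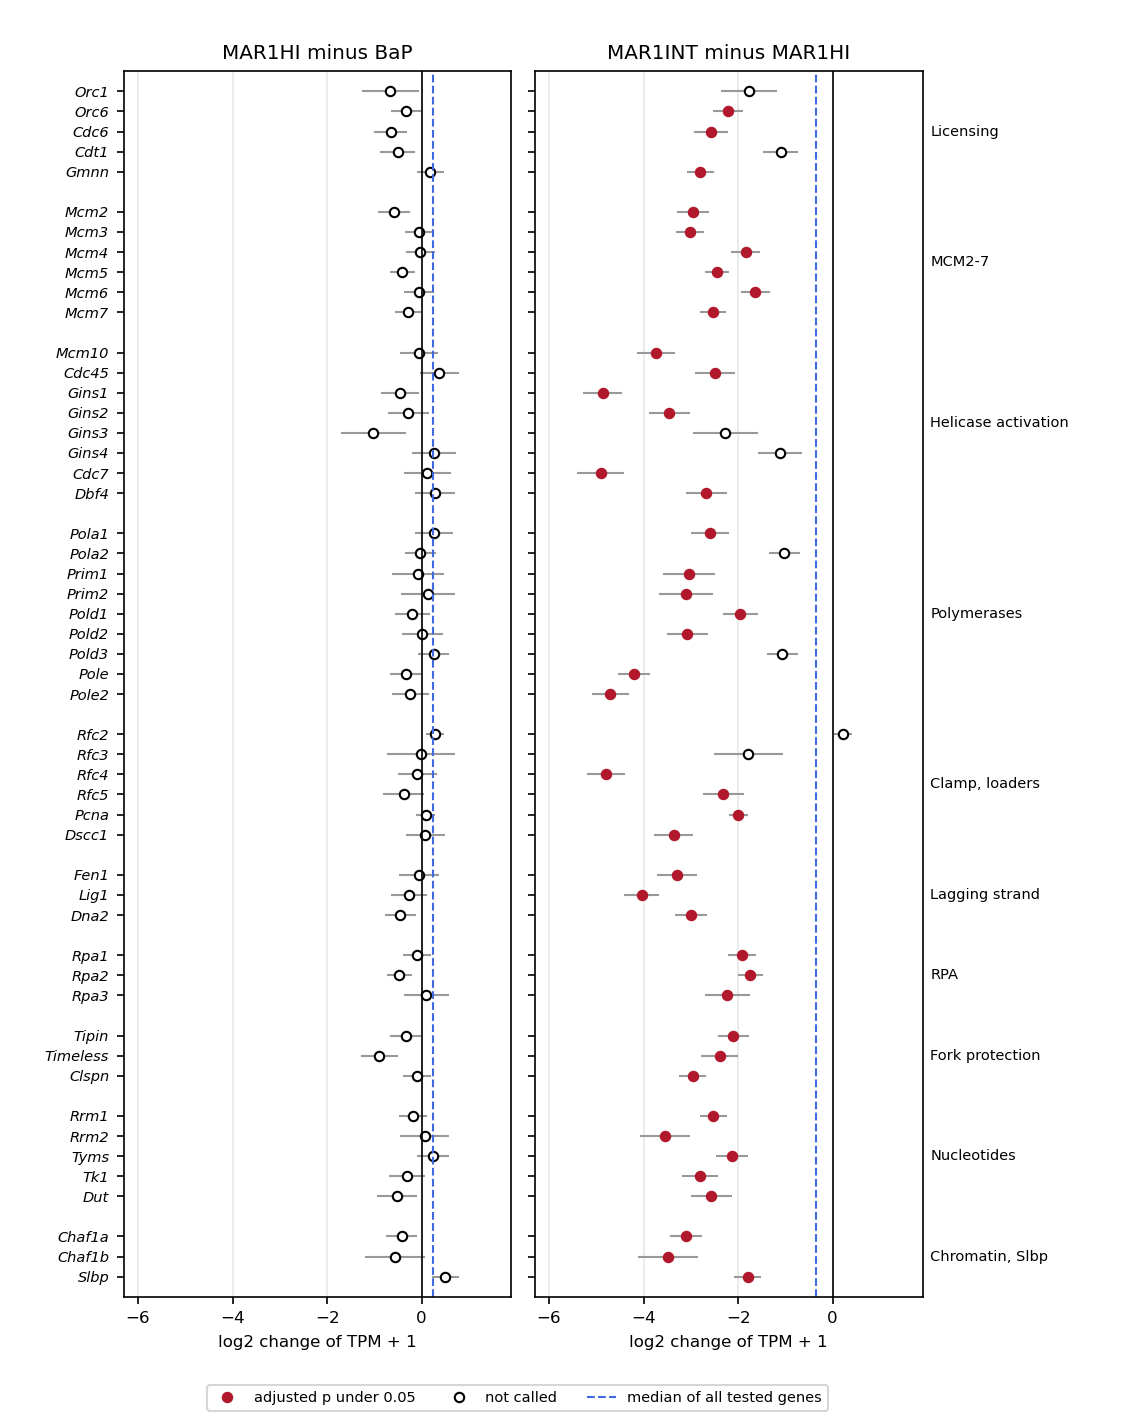
Log2 change of TPM + 1 (x axis) of each of the 51 genes by role, with bars for the standard error, in MAR1HI minus BaP (left) and MAR1INT minus MAR1HI (right); filled points passed limma's adjusted p under 0.05 and the dashed line is the median of all tested genes. The left panel has 0 filled points and spreads from -1.02 to 0.50, and the right panel has 43 filled points, all below 0.

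Licensing genes summed to 186 ± 18.1 TPM in BaP, 154 ± 4.0 in MAR1HI but 31.0 ± 4.37 in MAR1INT (SD, n = 2). All 5 fell in MAR1INT against BaP, and Orc6, Cdc6 and Gmnn also fell against MAR1HI. Cdc6, the ATPase that loads MCM rings, read 31.3 and 35.1 TPM in BaP, 20.1 and 21.3 in MAR1HI, but 2.51 and 2.79 in MAR1INT. The 3 groups did not overlap and stood in that order, and limma's log2 change was -2.57 ± 0.35 (SE, adjusted p = 0.00168) from MAR1HI and -3.23 ± 0.35 (adjusted p = 2.93e-04) from BaP. Gmnn, which encodes geminin, the inhibitor of CDT1, was highest in MAR1HI (57.4 and 58.8 TPM) and lowest in MAR1INT (7.97 and 7.07). Its partner Cdt1 kept the largest share of the licensing genes, 12.7 and 6.97 TPM in MAR1INT against 19.4 and 23.6 in MAR1HI, a log2 change of -1.10 ± 0.37 that was not called (limma adjusted p = 0.0751). Orc1, a subunit of the origin recognition complex, was at 2.37 and 0 TPM in MAR1INT and was not called against MAR1HI either (adjusted p = 0.0725, limma).

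All 6 subunits of the MCM2 to MCM7 ring fell against both other groups, and together they went from 660 ± 4.86 TPM in BaP and 581 ± 89.0 in MAR1HI to 125 ± 34.4 in MAR1INT. Of the ring, Mcm6 was the most abundant in every library, at 167 and 182 TPM in BaP, 144 and 195 in MAR1HI, but 73.7 and 38.7 in MAR1INT, and its log2 change from MAR1HI was -1.63 ± 0.31 (limma adjusted p = 0.00815). Mcm2 moved further, from 49.2 and 53.1 TPM in BaP and 28.8 and 39.8 in MAR1HI to 4.05 and 3.06 in MAR1INT, with log2 changes of -2.95 ± 0.34 from MAR1HI and -3.53 ± 0.34 from BaP (limma adjusted p = 7.13e-04 and 1.67e-04). Although the ring holds its subunits in equal number, their transcripts did not keep 1 ratio: MAR1INT had 10.3% of the MAR1HI mean for Mcm2 and 33.1% for Mcm6. Mcm3 read 117 and 105 TPM in BaP, 96.0 and 116 in MAR1HI, but 15.6 and 9.58 in MAR1INT (log2 change from MAR1HI -3.01 ± 0.29, limma adjusted p = 3.38e-04). BaP and MAR1HI overlapped for Mcm3, and MAR1INT lay well below both. Mcm5, whose upstream matches are printed above, stood at 125 and 125 TPM in BaP, 98.4 and 90.4 in MAR1HI, but 19.3 and 14.0 in MAR1INT. Mcm4 and Mcm7 kept 26.5% and 16.7% of their MAR1HI means.

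The helicase activation genes had the lowest median of any role in MAR1INT, 1.13 and 2.16 TPM, with 6 of 8 genes called lower against MAR1HI and 7 against BaP. Gins1, a subunit of the GINS complex of the active helicase (chr2:150909594-150931280, plus strand), read 49.6 and 30.4 TPM in BaP and 29.4 and 26.9 in MAR1HI and was listed at 0 in both MAR1INT libraries. Its fall was called against MAR1HI (limma adjusted p = 1.84e-04) and BaP (6.91e-05), and since the size of a change to 0 depends on the pseudocount, no fold is given. Gins2 was likewise listed at 0 in both MAR1INT libraries, from 15.2 and 9.95 TPM in BaP and 8.82 and 11.2 in MAR1HI (limma adjusted p = 0.00109 against MAR1HI). Gins3 was at 0 and 4.49 TPM in MAR1INT, from 19.8 and 24.2 in BaP and 10.1 and 10.4 in MAR1HI, and fell against BaP (log2 change -3.29 ± 0.69, limma adjusted p = 0.00668) but was not called against MAR1HI (adjusted p = 0.0524). The remaining subunit, Gins4, behaved otherwise: 26.1 and 26.5 TPM in BaP, 26.2 and 38.9 in MAR1HI, but 24.1 and 8.27 in MAR1INT, called in neither contrast (limma adjusted p = 0.140 and 0.199). One MAR1INT library was thus close to BaP for Gins4 and the other well below it, though above every other gene of the role in that library. A 0 in such a table can also be a failed estimate, and none of 14 housekeeping genes was at 0 in any library.

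Cdc7, the kinase that fires licensed origins, had 45.3 and 46.3 TPM in BaP, 42.0 and 58.8 in MAR1HI, but 1.85 and 0 in MAR1INT. Its limma log2 change was -4.91 ± 0.50 from MAR1HI (adjusted p = 4.00e-04). Dbf4, its activating subunit, kept more: 13.7% of the MAR1HI mean against 1.84% for Cdc7. Mcm10, a scaffold that helps the helicase open DNA, went from 18.7 and 22.4 TPM in BaP and 18.1 and 21.1 in MAR1HI to 0.400 and 0.710 (log2 change from MAR1HI -3.73 ± 0.40, limma adjusted p = 4.72e-04). Cdc45 also fell and kept 17.7% of the MAR1HI mean.

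Polymerase and primase genes summed to 381 ± 33.0 TPM in BaP, 371 ± 48.1 in MAR1HI but 69.2 ± 10.9 in MAR1INT, with 7 of 9 called lower against MAR1HI and 8 against BaP. Both polymerase epsilon genes were among the lowest members in MAR1INT. Pole, the catalytic subunit of the leading-strand polymerase, read 64.1 and 52.4 TPM in BaP, 44.5 and 46.7 in MAR1HI, but 1.34 and 1.76 in MAR1INT (log2 change from MAR1HI -4.20 ± 0.33, limma adjusted p = 1.50e-04). Pole2, an accessory subunit, went from 27.5 and 32.2 TPM in BaP and 23.5 and 26.8 in MAR1HI to a listed 0 in both MAR1INT libraries (limma adjusted p = 1.77e-04). For polymerase delta the subunits differed: Pold2, at 22.1 and 20.2, 20.3 and 22.4, then 0.951 and 2.63 TPM, fell by 3.07 ± 0.43 on the log2 scale from MAR1HI (limma adjusted p = 0.00175), and Pold1 kept 24.1% of its MAR1HI mean. Pold3, in contrast, read 31.9 and 35.8 TPM in BaP, 32.8 and 50.2 in MAR1HI, but 16.5 and 21.6 in MAR1INT, which was called in neither contrast (limma adjusted p = 0.0529 and 0.0877), although both MAR1INT libraries were below the other 4.

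For primase, Prim1 (catalytic) had 133 and 89.6 TPM in BaP, 104 and 103 in MAR1HI, but 25 and 5.27 in MAR1INT, a log2 change of -3.04 ± 0.55 from MAR1HI (limma adjusted p = 0.00607). Prim2, the other primase subunit, had 20.3 and 16.8, 18.6 and 22.3, then 3.69 and 0.324 TPM (-3.10 ± 0.57, limma adjusted p = 0.00680). The MAR1INT duplicates of these genes lay far apart, up to 11.4-fold for Prim2, yet stayed below every other library. Of polymerase alpha, Pola1 (catalytic) fell to 15.6% of the MAR1HI mean, and Pola2 kept 46.6%, with a log2 change of -1.03 ± 0.33 that was not called against MAR1HI (limma adjusted p = 0.0628) and was called against BaP (0.0363).

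The clamp and its loaders were the most uneven role. Pcna, the sliding clamp, was the most abundant member in BaP and MAR1HI, at 412 and 434 and 402 and 500 TPM, and fell to 115 and 109 in MAR1INT (log2 change -1.99 ± 0.20, limma adjusted p = 3.60e-04). Its duplicates in MAR1INT agreed closely, and it remained at a level that most members did not reach in any group. Rfc4, a small subunit of the clamp loader, had 35.0 and 23.3 TPM in BaP and 24.2 and 29.4 in MAR1HI and was listed at 0 in both MAR1INT libraries (limma adjusted p = 2.11e-04). Dscc1, part of the alternative loader that acts in cohesion, was also listed at 0 in both, from 8.90 and 8.53, and 8.33 and 10.3 TPM (limma adjusted p = 9.32e-04). Rfc5 fell to 17.9% of its MAR1HI mean. Rfc3 was at 17.5 and 1.85 TPM in MAR1INT, so 1 library was near the lower MAR1HI library (18.7) and the other far below, and no contrast called it (limma adjusted p = 0.129 and 0.0877).

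Rfc2, another small subunit of the same loader (chr5:134582690-134598328, plus strand), was the only member above 0 in both MAR1INT contrasts. It read 283 and 253 TPM in BaP, 308 and 346 in MAR1HI, then 391 and 371 in MAR1INT, so the 3 groups did not overlap and MAR1INT was highest. The log2 change from BaP was 0.51 ± 0.19 and was not called (limma adjusted p = 0.0673), though it passed under 4 of 15 alternative settings. Its closest neighbour Lat2, an adaptor gene of mast cells and other leukocytes that lies 1774 bases away on the opposite strand without overlap, read 80.0 and 78.2, 136 and 193, and 215 and 166 TPM in the same libraries. Whether reads of 1 gene were counted for the other was not tested. Its partner subunits Rfc3, Rfc4 and Rfc5 lay far lower in BaP, between 23.3 and 35.0 TPM.

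**Figure D3:**
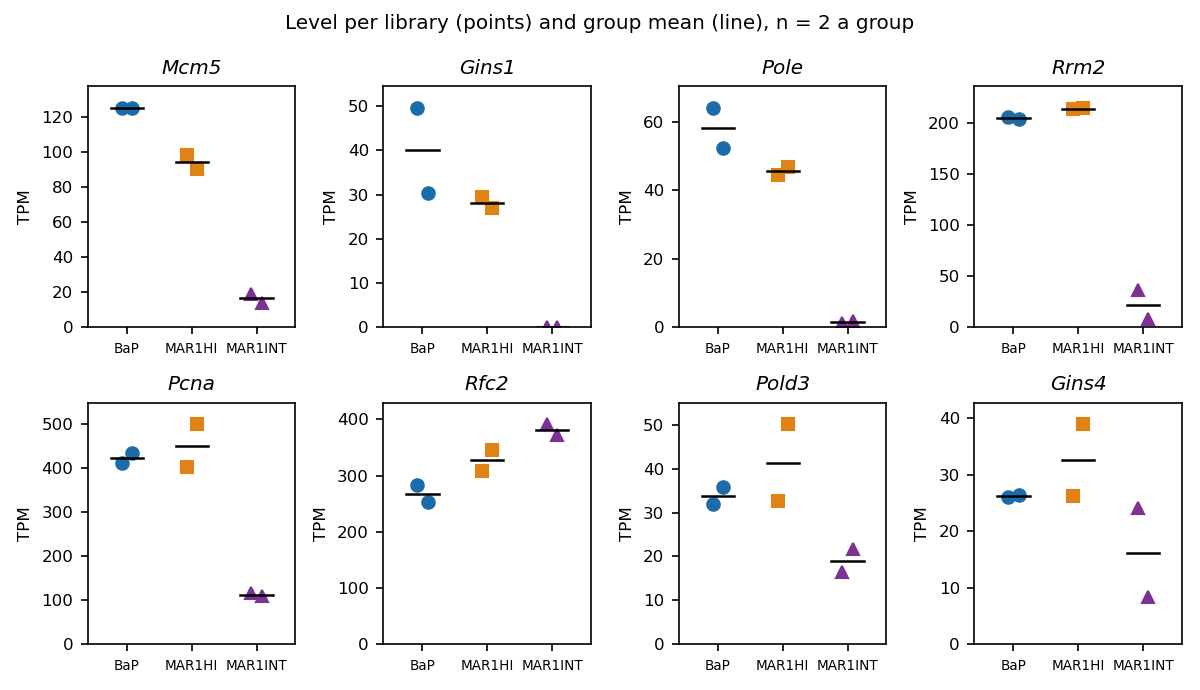
TPM (y axis, from 0) of 8 genes in each library; points are libraries, 2 for each group, and lines are group means. Mcm5, Gins1, Pole, Rrm2 and Pcna drop in MAR1INT, Gins1 to a listed 0, whereas Rfc2 is highest there (391 and 371 TPM) and Pold3 and Gins4 were not called.

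Lagging-strand enzymes kept the smallest share of any role, 6.91% of the MAR1HI sum, and all 3 fell against both groups. Lig1, the ligase that seals Okazaki fragments, read 154 and 135 TPM in BaP, 121 and 119 in MAR1HI, but 3.85 and 10.1 in MAR1INT (log2 change from MAR1HI -4.04 ± 0.37, limma adjusted p = 2.69e-04). Fen1, the flap nuclease, had 20.2 and 20.7, 18.8 and 20.7, then 0.576 and 1.83 TPM (-3.29 ± 0.43, limma adjusted p = 0.00134). Dna2, a nuclease and helicase for long flaps, had 60.9 and 57.7, 34.0 and 54.8, then 4.34 and 4.71 TPM (-3.0 ± 0.34, limma adjusted p = 6.07e-04). In each of these genes the MAR1INT values stood far outside the spread of the other 4 libraries. Lig1 overlaps Zswim9 on the opposite strand over 1409 bases, Rfc4 overlaps Eif4a2 over 191 and Gins2 overlaps Gse1 over 118. The use of strand in counting was not given in the sources used here, so reads from the overlaps cannot be assigned.

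The RPA genes, whose trimer coats single-stranded DNA in replication and repair, kept 25.8% of the MAR1HI sum, a larger share than any role but the clamp, and all 3 fell against both groups. Rpa3, the most abundant on average, had 95.6 and 82.9 TPM in BaP, 80.2 and 114 in MAR1HI, but 36.1 and 10.5 in MAR1INT (log2 change from MAR1HI -2.23 ± 0.48, limma adjusted p = 0.0133). Rpa1 and Rpa2 changed by -1.91 and -1.74 from MAR1HI.

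All 3 fork-protection genes fell against both groups. Timeless, which with TIPIN holds helicase and polymerase together, was the one member with an unadjusted p under 0.05 between MAR1HI and BaP: 28.6 and 23.2 TPM in BaP, 15.3 and 11.7 in MAR1HI, but 1.99 and 1.54 in MAR1INT. The groups did not overlap, and the MAR1HI minus BaP log2 change of -0.89 ± 0.39 missed the threshold after adjustment (limma adjusted p = 0.283). From MAR1HI to MAR1INT it was -2.39 ± 0.40 (limma adjusted p = 0.00400). Clspn, encoding claspin, the mediator that relays the stalled-fork signal to CHK1, had 61.9 and 55.1, 53.0 and 55.8, then 5.61 and 6.64 TPM (-2.96 ± 0.29 from MAR1HI, limma adjusted p = 3.60e-04). Tipin kept 22.3% of its MAR1HI mean.

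The nucleotide synthesis genes summed to 526 ± 25.2 TPM in BaP, 486 ± 30.6 in MAR1HI but 71.1 ± 12 in MAR1INT, and all 5 fell against both groups. Rrm2, the S-phase subunit of ribonucleotide reductase, had 206 and 203 TPM in BaP, 213 and 214 in MAR1HI, but 36.5 and 7.95 in MAR1INT (log2 change from MAR1HI -3.55 ± 0.52, limma adjusted p = 0.00229). The 4 libraries of BaP and MAR1HI lay between 203 and 214 TPM, and the MAR1INT duplicates were several-fold apart. Its partner Rrm1 kept 17.2% of its MAR1HI mean. Tk1, thymidine kinase, read 27.0 and 21.9, 19.0 and 20.1, then 2.23 and 1.66 TPM (-2.81 ± 0.38, limma adjusted p = 0.00155). Tyms, which makes dTMP, and Dut, which removes dUTP, kept 22.0% and 18.4% of their MAR1HI means.

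Among chromatin genes, Chaf1a, the large subunit of the CAF-1 chaperone that places histones on new DNA, had 52.5 and 40.2 TPM in BaP, 32.1 and 35.9 in MAR1HI, but 3.08 and 3.10 in MAR1INT (log2 change from MAR1HI -3.10 ± 0.34, limma adjusted p = 5.06e-04). Chaf1b, its partner, had 39.5 and 31.7, 24.3 and 23.1, then 0 and 3.88 TPM (-3.48 ± 0.64, limma adjusted p = 0.00681). Slbp, which binds the stem-loop of histone mRNA, was highest in MAR1HI (84.6 and 122 TPM), lay at 68.5 and 74.6 in BaP, and fell to 33.7 and 24.0 in MAR1INT (limma adjusted p = 0.00336 from MAR1HI).

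In all, 5 of the 51 members were listed at 0 in both MAR1INT libraries: Gins1, Gins2, Pole2, Rfc4 and Dscc1. Among genes with means of 8 to 40 TPM in both BaP and MAR1HI, this held for 5 of 20 members (25%). Of all genes in that range, it held for 48 of 3583 (1.34%). The bounds were taken from the levels of these 5 members, so all 5 fall inside them by construction while other members are left out. The members' share is raised by that choice and is not a test against the share of all genes.

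Between BaP and MAR1HI limma called 0 members, and on the deposited TPM they did not all change in 1 direction. Lack of a call does not mean equal levels with 2 libraries a group. Gins3 in MAR1HI stood at 0.468-fold of BaP and Timeless at 0.522-fold, and neither was called (limma adjusted p = 0.486 and 0.283). The fit shares 1 spread over the 3 groups, so the MAR1INT duplicates also enter the standard errors of this contrast. Log2 changes ran from -1.02 for Gins3 to 0.50 for Slbp. Of the 51, 35 were below 0, against 3701 of all 11337 tested genes. The median was -0.10 against 0.24 over all tested genes, or -0.34 relative to them. Both MAR1HI libraries were below both BaP libraries for 20 members (15.3% of all tested genes), among them Orc1, Orc6, Cdc6 and Cdt1 of the licensing genes, and above them for 5 (38.2% of all): Gmnn, Rrm2, Tyms, Slbp and Rfc2. The number below 0 depended on scaling. With median-of-ratios scaling 49 of 51 were below 0 and the median was -0.40, while without MAR1HI replicate 1 it was 26 of 51 with a median of -0.03.

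A list of 30 mitosis genes (among them Mki67, Top2a and Ccnb1) was read in the same cells. All 30 were called lower in MAR1INT against MAR1HI (all genes 14.5%), with a median log2 change of -3.12. All 30 were also called lower against BaP (all genes 20.4%), with a median of -2.70, as were most of the replication genes. In MAR1HI minus BaP all 30 were above 0, as were 7635 of all 11337 tested genes. Their median was 0.38, or 0.14 relative to all tested genes. Limma called 0 of them, and 2 had an unadjusted p under 0.05. Both MAR1HI libraries were above both BaP libraries for 18 of 30 (38.2% of all tested genes). With median-of-ratios scaling that became 18 of 30 above 0 with a median of 0.08. The ratio of summed member TPM (without Rfc2) to summed mitosis TPM does not depend on scaling: it was 1.29 and 1.16 in BaP, 0.900 and 0.805 in MAR1HI, but 1.48 and 1.51 in MAR1INT. MAR1HI was thus lowest and the groups did not overlap. With Rfc2 included the ratios were 1.40 and 1.25, 0.998 and 0.888, then 2.36 and 2.62.

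**Figure D4:**
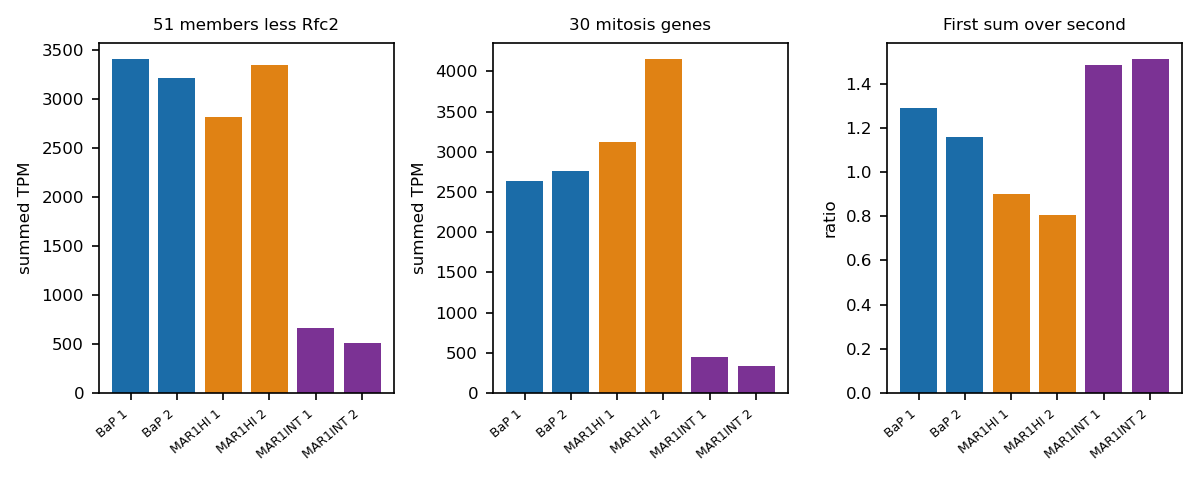
Summed TPM of the 51 members less Rfc2 (left), summed TPM of 30 mitosis genes (middle), and the first sum divided by the second (right) in each of the 6 libraries; bars start at 0. Both sums drop in MAR1INT, and the ratio is lowest in the MAR1HI libraries (0.900 and 0.805).

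Other genes of the same processes moved less uniformly. Of 29 further replication genes, 16 were called lower and 0 higher in MAR1INT against MAR1HI (all genes 14.5% and 2.29%), with a median log2 change of -1.42. Against BaP, 16 were called lower and 1 higher (all genes 20.4% and 11.1%), with a median of -1.34. Pif1, a helicase, had 11.7 and 10.6 TPM in BaP, 9.65 and 14.7 in MAR1HI, but 0.255 and 0 in MAR1INT (limma adjusted p = 9.49e-04 from MAR1HI), and Pold4, a small polymerase delta subunit, rose from 31.2 and 33.5 in BaP to 71.1 and 73.0 (limma adjusted p = 0.0109). Of 30 further genes of nucleotide synthesis and breakdown, 13 were called lower and 1 higher against MAR1HI, and 19 lower and 2 higher against BaP. The shares of all genes were as above. Samhd1 was the gene called higher against MAR1HI, and Samhd1 and Tk2 were those called higher against BaP. Ctps, which makes CTP, was listed at 0 in both MAR1INT libraries, from 16.1 and 18.7 TPM in BaP and 12.1 and 13.2 in MAR1HI. Samhd1, the enzyme that breaks down dNTPs, rose from 34.3 and 50.8 in BaP and 64.2 and 105 in MAR1HI to 281 and 243 TPM (log2 change 1.66 ± 0.30 from MAR1HI, limma adjusted p = 0.00630). Dctd, dCMP deaminase, was the one gene of this list called in MAR1HI minus BaP: 6.85 and 7.22 TPM in BaP and 0.993 and 0.973 in MAR1HI (log2 change -2.02, limma adjusted p = 0.0324).

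Of 12 other histone chaperone genes, 7 were called lower and 0 higher against MAR1HI (all genes 14.5% and 2.29%). The counts against BaP were also 7 and 0 (all genes 20.4% and 11.1%). Asf1b, a histone H3-H4 carrier, read 49.0 and 56.7, 60.3 and 67.4, then 2.78 and 6.44 TPM (log2 change from MAR1HI -3.61 ± 0.37, limma adjusted p = 4.30e-04). Of 16 E2F and pocket protein genes, 7 were called lower and 1 higher in each MAR1INT contrast, beside the same shares of all genes. E2f1, an activator of S-phase genes, read 13.3 and 16.4 TPM in BaP, 10.9 and 12.2 in MAR1HI, but 1.44 and 0.103 in MAR1INT (log2 change from MAR1HI -2.93 ± 0.48, limma adjusted p = 0.00396). Rbl2, which encodes p130, the pocket protein of resting cells, rose: 99.4 and 97.6, 171 and 211, then 401 and 308 TPM (0.88 ± 0.22 from MAR1HI, limma adjusted p = 0.0263). Median log2 changes of this list were -1.45 from MAR1HI and -1.19 from BaP.

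**Figure D5:**
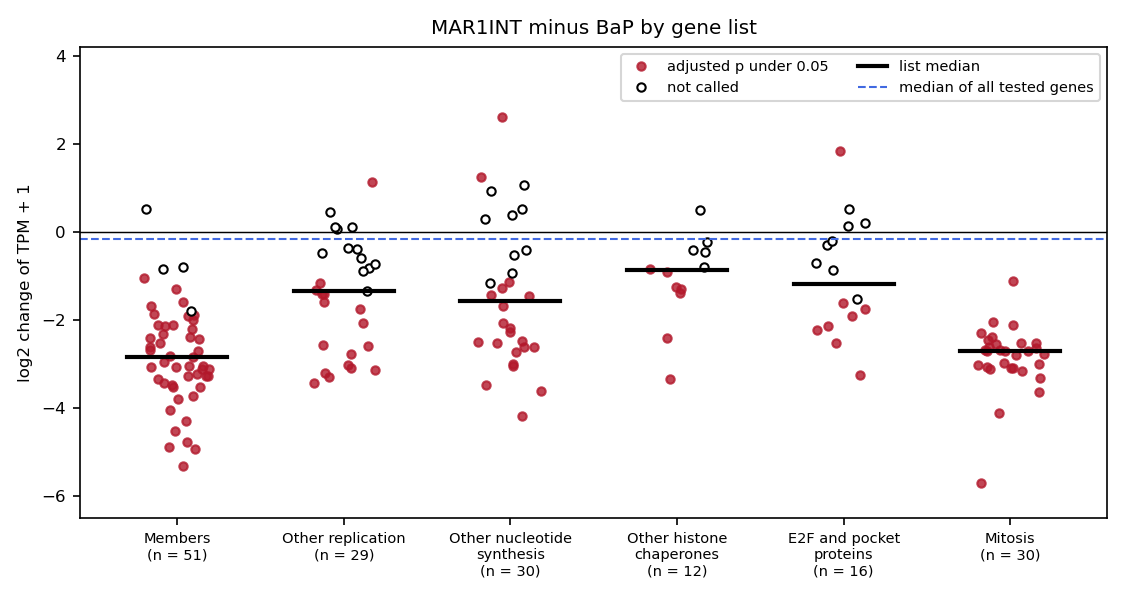
Log2 change of TPM + 1 in MAR1INT minus BaP (y axis) for the 51 members and 5 other gene lists; each point is a gene, filled where limma's adjusted p was under 0.05, thick lines are list medians and the dashed line is the median of all tested genes. The members and the mitosis genes have the lowest medians (-2.85 and -2.70), and single genes of the other lists lie above 0.

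The libraries were of like depth, 4.75 to 5.28 gigabases of aligned sequence. All 10 basophil markers were above 0 in each group, with summed TPM of 17150 to 22020 in BaP, 18450 to 22030 in MAR1HI and 11870 to 14520 in MAR1INT. Single markers did not all follow the sums. In MAR1INT minus BaP, limma called 5 of the 10 higher (all genes 11.1%) and 4 lower (20.4%). In MAR1INT minus MAR1HI it called 1 higher (2.29%) and 3 lower (14.5%), and in MAR1HI minus BaP 4 higher (1.83%) and 0 lower (0.662%). Markers of other cells differed between the groups too. Of 10 progenitor markers, the sums were 540 to 595, 377 to 481 and 221 to 229 TPM, with Flt3 at 0 in both MAR1INT libraries and between 0.136 and 1.37 TPM in the others, and Mycn at 0.130 TPM or less in every library. Eosinophil markers (9 genes) summed to 1152 to 2166, 109 to 158 and 213 to 349 TPM, and dendritic cell markers (10 genes) to 358 to 988, 60.8 to 73.6 and 16.1 to 25.6. Neutrophil lineage markers (15 genes) gave 6413 to 11790, 4044 to 5223 and 3652 to 4209, and monocyte and macrophage markers (15 genes) 707 to 755, 360 to 390 and 409 to 417. For 15 erythroid markers the sums were 1597 to 2418, 646 to 1260 and 1280 to 2815. T and NK cell markers (10 genes) gave 409 to 427, 262 to 295 and 90.2 to 99.6, with Cd3e and Cd3g at 0 in both BaP libraries, Cd3g in both of MAR1HI, and Cd3d, Cd3g, Cd8a, Ncr1, Klrb1c and Gzma in both of MAR1INT. B and plasma cell markers (10 genes) gave 118 to 121, 122 to 139 and 93.9 to 94.0, and megakaryocyte and platelet markers (9 genes) 267 to 281, 419 to 545 and 347 to 443. Mast cell markers (8 genes, Kit included) gave 42.1 to 45.5, 4.18 to 5.14 and 0.0446 to 0.449. Markers at 0 in both libraries of a group were also found in other lists: Ear6 in MAR1HI and MAR1INT, with Epx, Prg3 and Il5ra in MAR1INT, Batf3 in all 3 groups, Xcr1 in MAR1HI and MAR1INT, and Ccr9 in MAR1INT. Of the mast cell list, BaP had 2 at 0, MAR1HI had 4 and MAR1INT had 7. This also held in MAR1INT for Fcnb, Spic, Rhag, Pf4, Ms4a1, Pax5 and Igll1, and in all 3 groups for Treml1. The part of other cells in the members' levels was not tested.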

How the data were processed

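Per the file headers, each deposited table gives a coverage signal, FPKM and TPM by gene, with 1 table for each of 6 libraries. Per the labels, RNA was taken with TRIZol LS and libraries were made with a SureSelect capture kit, and captured targets can shift levels between genes. Per the submitters' processing notes, the authors used Trimmomatic, HISAT2 and StringTie with mm10. Versions, options, annotation and strand setting were not given in the sources used here. The authors' TPM was the main measure, the deposited FPKM an alternative, and the deposited coverage signal served only to derive aligned bases with FPKM. No counts were used, so no counting interval is given. Of 24532 gene IDs, 24462 matched a symbol, and values of an ID listed in parts were summed.

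The 11337 genes that reached 1 TPM in 2 libraries or more were tested on log2(TPM + 1), which understates changes of low genes, with limma 3.58.1 in R 4.3.3 (1 term per group, trended eBayes, two-sided, 3 residual degrees of freedom). Adjustment (Benjamini-Hochberg) ran over all tested genes. The script was tested on simulated data. Tables and figures used matplotlib 3.10.9, numpy 2.4.6 and pandas 2.3.3 under Python 3.11.15.

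The members, lists and tests were chosen with earlier results of these data known. Full values are given for the 20 members with the largest change among those called in each MAR1INT contrast, for any called in MAR1HI minus BaP, and for the most abundant member of a role with none of these. Mcm5, Mcm6, Pcna, Gmnn, Cdt1, Slbp and members that were not called were added after their values were seen. Up to 6 promoters with an E2F match were to be printed in order of adjusted p, with 1 lacking a match. Where the upstream stretch held annotated exon bases or the match lay past the start, only the match was printed. Pola1, Mcm6 and Cdc6 were added, and Chaf1a replaced Rfc4, whose stretch held exon bases.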

Additional observations from a re-analysis of the deposited data

How the results depend on the processing

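The counts were repeated under 15 alternative settings. Members called lower in MAR1INT minus MAR1HI numbered 32 with no filter on low values and 46 on FPKM, and between 19 and 48 with 1 library left out. The lowest came without MAR1HI replicate 2, and 31 were called without MAR1HI replicate 1. For MAR1INT minus BaP the number called lower was 43 with no filter, 48 on FPKM, and 40 to 49 with 1 library left out. Calls higher in MAR1INT minus BaP were 1 (Rfc2) with quantile normalization and 1 with only the 2 groups compared, and 0 to 1 with 1 library left out (1 without either MAR1HI library). MAR1HI minus BaP gave 0 calls under each of the 15. The F test called 36 members with no filter and 37 to 48 with 1 library left out. The median change in MAR1INT minus MAR1HI was -2.10 with quantile normalization, where the median of all genes was 0.11. Every member kept its sign in both MAR1INT contrasts under all 15 settings, 39 of 47 and 19 of 43 called members were called under every one, and in MAR1HI minus BaP 26 of 51 kept their sign. With the replicate number as a replicate block, 45 and 46 members were called lower in MAR1INT minus MAR1HI and minus BaP. The labels do not say that a number marks a shared mouse or day, and the correlation of same-numbered deviations over genes was 0.15 for BaP with MAR1HI, -0.09 for BaP with MAR1INT and -0.06 for MAR1HI with MAR1INT. Where a library is left out, its group's lone library is assumed to vary like the others. Without either of the MAR1INT libraries, every gene's spread came from the fitted trend alone. The upper ends of the left-out ranges for calls lower and for the F test came from these fits. They are not comparable with the other counts. With no counts, the counting error of levels near 0, which is the largest in relative terms, was not estimated.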

Other observations

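E2f8, an E2F repressor of S-phase genes, was singled out after its values were seen because they were alike in BaP and MAR1INT. It read 174 and 206 TPM in BaP, 213 and 302 in MAR1HI, then 224.5 and 189 in MAR1INT, with a log2 change from BaP of 0.12 ± 0.24 (SE, limma adjusted p = 0.722). E2f7, its closest relative, had 12.7 and 10.2, 16.7 and 17.9, then 2.29 and 1.36 TPM and fell against BaP (-2.15 ± 0.41, limma adjusted p = 0.00416), and the difference between the genes was not tested. Impdh2, which catalyses the first step toward guanine nucleotides, was among the higher of the nucleotide genes outside the 51, at 227 and 193 TPM in BaP, 107 and 111 in MAR1HI, but 27.0 and 22.1 in MAR1INT. The groups did not overlap, and MAR1HI lay between the others, with an uncalled log2 change from BaP of -0.93 (limma adjusted p = 0.0770) and a called one of -2.11 ± 0.24 from MAR1HI to MAR1INT (adjusted p = 5.81e-04).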
